A study of Homo sapiens with 6 samples.

Results

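Transcripts of 10 genes of DNA alkylation repair were followed among the 20325 protein-coding genes listed for SNU-668 gastric cancer cells. The genes were chosen by name, with earlier results of these data known. They are the partners of the demethylase ALKBH3 in the ASCC complex (ASCC1, ASCC2, ASCC3 and RNF113A) and the direct reversal enzyme MGMT. The others excise and replace alkylated bases (MPG, APEX1, POLB, XRCC1 and LIG3). SNU-668 is an established human cell line, and the cells used here are described as resistant to erastin, a compound that blocks cystine import and induces ferroptosis. Bulk poly(A) RNA was sequenced from 3 libraries of resistant cells given a control shRNA, whose genotype label is WT, and from 3 libraries of resistant cells given an shRNA against ALKBH3. Both groups share the resistance and the medium, so no parental, untransfected cells enter the comparison. All 6 library titles begin with the tag RLS3. The labels name neither the shRNA sequence nor a clone, and they do not state that replicates came from separate cultures. The p-values therefore rest on the variation among these 6 libraries alone, and that variation may be technical.

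Alkylating agents and normal metabolism leave methyl groups on DNA bases, and cells remove them by separate routes. ALKBH3 oxidises methyl groups off single-stranded DNA and RNA. In human cells it works with the helicase ASCC3, which opens the duplex, while ASCC2 binds ubiquitin chains made by the ligase RNF113A and so brings the complex to sites of alkylation. MGMT instead takes a methyl group from guanine onto its own cysteine and is used up in doing so. In base excision repair the glycosylase MPG removes an alkylated purine, APEX1 cuts the backbone at the empty site, POLB fills the gap, and LIG3, held by the scaffold XRCC1, seals it.

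Library totals ran from 14244932 to 17880183 counts, and from 14465 to 14754 genes had at least 1 count. Levels are given as CPM, a gene's counts relative to the scaled library size. Of the marker genes looked up, the epithelial keratin KRT18 had 135 to 202 CPM of the library total, while CDH1, CLDN18, MUC5AC and GKN1, which mark epithelial and gastric cells, had 0 counts in all 6 libraries and EPCAM 54 counts in total. KRT8, the partner keratin of KRT18, had 11.8 to 18.4 CPM and GATA6, a transcription factor of the gut lining, 19.4 to 28.1 CPM. KRT18, KRT8 and GATA6 were each higher in every knockdown library than in every control. For KRT18 the levels were 135 to 155 CPM in the controls and 190 to 202 CPM in the knockdown. Of all tested genes, 26.6% showed no overlap between the groups in either direction. The mesenchymal marker CDH2 was likewise higher in every knockdown library, at 293 to 335 CPM in the controls and 356 to 361 CPM in the knockdown. The mesenchymal filament VIM had 3607 to 3950 CPM and FN1 3151 to 4126 CPM, and both overlapped between the groups. The fibroblast gene COL1A1 also overlapped, at 92.3 to 118 CPM in the controls and 67.9 to 96.4 CPM in the knockdown. KRT19 and CLDN4 had at most 1.37 CPM, and TFF1 and TFF2 had 2 and 4 counts in total. The part of these markers in the results was not tested. Among immune markers, CD3E of T cells had 0 counts, CD14 of monocytes 20 in total and the leukocyte phosphatase PTPRC 133, of which 65 (3.70 CPM) were in knockdown replicate 2 and 0 in knockdown replicate 3. ALKBH3 checked the labels: its counts were 326, 351 and 334 in the controls and 95, 106 and 68 in the knockdown libraries, 0.232 of the control level.

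With ALKBH3 at that level, 0 of the 10 genes were called higher or lower in a quasi-likelihood F-test with edgeR at an adjusted p under 0.05. Of all 12305 tested genes, 8.08% were called, 3.96% higher and 4.12% lower. At an unadjusted p under 0.05 the count was 1 of 10, RNF113A, against 22.2% of all tested genes, and DESeq2 and limma-voom also called 0 of the 10. All 10 genes passed the filter on low counts, with 118 to 3052 counts per library. Their log2 fold changes, knockdown over control, ran from -0.13 for ASCC3 to 0.29 for RNF113A. In 6 genes the sign was positive and in 4 negative, with a median of 0.05 beside 0.01 over all tested genes. The 95% intervals, not adjusted for the number of genes, bound how large a difference these libraries allow. Their lowest bound was 0.781-fold, for MGMT, and their highest 1.45-fold, for RNF113A, so all 10 intervals lay within 1.5-fold in either direction and 8 lay within 1.3-fold.

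**Figure D1:**
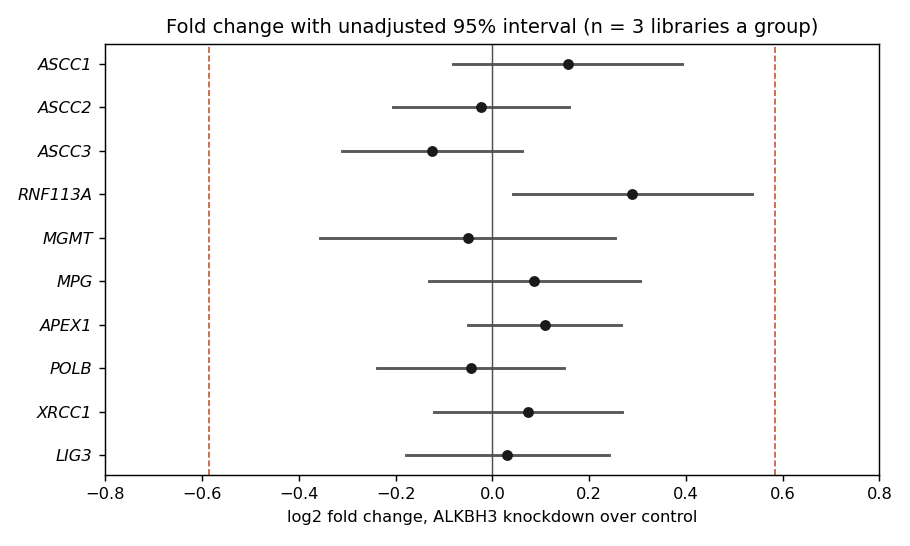
Log2 fold change of each of the 10 genes (points, knockdown over control, n = 3 libraries a group) with its unadjusted 95% interval (lines). The dashed lines mark 1.5-fold in either direction, and the interval of RNF113A, from 0.04 to 0.54, is the 1 that does not cross 0.

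The 3 ASCC subunits stayed within the spread between libraries. ASCC3, the helicase, had 88.2, 87.9 and 69.0 CPM in the controls and 75.5, 75.8 and 73.4 CPM in the knockdown libraries. Control replicate 3 lay below all the others and the remaining controls above them, so the groups overlapped. The means were 81.7 ± 10.96 and 74.9 ± 1.33 CPM (SD, n = 3 each), with a difference of -0.13 on the log2 scale and an SE of 0.0901 (edgeR, adjusted p = 0.450). Without control replicate 3 it was -0.23 (adjusted p = 0.0938), and without control replicate 1 or 2 it was -0.07 (adjusted p = 0.756 and 0.737).

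ASCC2, the subunit that reads ubiquitin, had 54.0, 61.1 and 61.5 CPM in the controls and 61.1, 59.4 and 53.2 CPM in the knockdown libraries. Each group had 1 library near 54 CPM and a pair near 60 CPM. The log2 fold change was -0.02 with a 95% interval from -0.21 to 0.16 (edgeR, adjusted p = 0.917). Scaled by library totals alone the value was 0.0028, so it carries no direction.

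ASCC1 carries an RNA-binding KH domain and takes part with the other subunits in the complex. It had 18.2, 17.6 and 20.2 CPM in the controls and 19.4, 20.6 and 22.5 CPM in the knockdown libraries. Control replicate 3 lay above knockdown replicate 1, and the difference was 0.16 on the log2 scale, with an SE of 0.115 (edgeR, adjusted p = 0.462). With 1 library left out it ran from 0.10, without knockdown replicate 3, to 0.22, without control replicate 3. ASCC1, on the minus strand of chromosome 10, overlaps ANAPC16 on the plus strand by 1106 bases of gene span. The strand setting of the counting is not given in the sources used here, so reads there cannot be told apart. ANAPC16, a subunit of the anaphase-promoting complex, had a log2 fold change of 0.27 (edgeR, adjusted p = 0.0536), and its part in the ASCC1 value was not tested.

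RNF113A, the ligase that marks sites for the ASCC complex and is also a spliceosome component, was the 1 gene of the 10 whose groups did not overlap, where 26.6% of all tested genes showed no overlap. Its counts were 213, 284 and 268 in the controls and 412, 344 and 315 in the knockdown libraries. In CPM these were 15.0, 18.6 and 18.1 against 22.9, 19.4 and 20.9. The gap between the groups, from 18.6 in control replicate 2 to 19.4 in knockdown replicate 2, was smaller than the range within either group. The means of 17.2 ± 1.95 and 21.1 ± 1.77 CPM (SD, n = 3 each) differed by 0.29 on the log2 scale (SE 0.120), which did not pass (edgeR, unadjusted p = 0.0237, adjusted p = 0.147). It was 0.20 without control replicate 1 (adjusted p = 0.403) and 0.22 without knockdown replicate 1 (adjusted p = 0.368), and the adjusted p was 0.106 or more in all 15 alternatives.

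RNF113A has a single exon on the minus strand of the X chromosome (119004497 to 119005791 in hg19), and the first 342 bases of the span of NDUFA1, a subunit of respiratory complex I on the plus strand, overlap its start. NDUFA1 had 47.7, 71.8 and 85.3 CPM in the controls and 68.5, 71.2 and 71.4 CPM in the knockdown libraries. Control replicate 1 was the lowest library for both genes. Knockdown replicate 1, in contrast, was the highest library for RNF113A and the lowest knockdown library for NDUFA1. The log2 fold change of NDUFA1 was 0.04 (edgeR, adjusted p = 0.925). Its part in the RNF113A value was not tested.

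**Figure D2:**
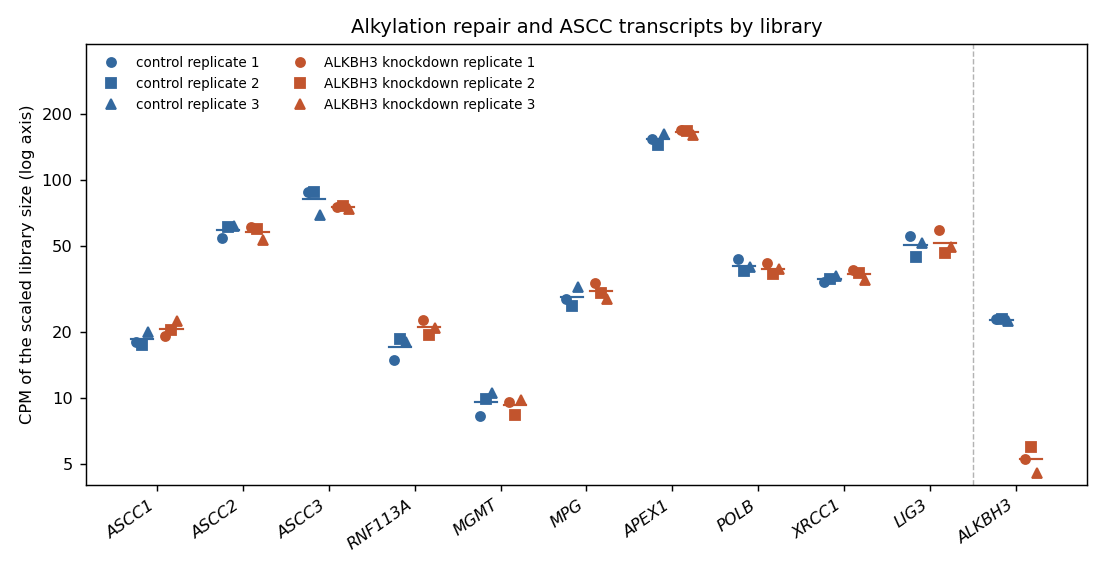
CPM of the scaled library size (log axis) of the 10 genes and, right of the dashed line, of ALKBH3 in each library (points, shaped by replicate) with group means (bars). ALKBH3 drops from 22.8 to 5.26 CPM, while the groups of 9 of the 10 genes overlap and those of RNF113A lie apart.

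MGMT was the lowest of the 10 genes and was present in every library, with 118, 152 and 156 counts in the controls and 173, 149 and 148 in the knockdown libraries. Its levels of 8.31, 9.94 and 10.6 CPM in the controls and 9.62, 8.40 and 9.83 CPM in the knockdown libraries interleaved. The log2 fold change was -0.05, with the widest SE of the 10 at 0.148 and a 95% interval from -0.36 to 0.25 (edgeR, adjusted p = 0.884). Without control replicate 3 the value was 0.02.

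MGMT is known for a promoter that is dense in CpG, the dinucleotide whose methylation silences the gene in many tumours. The stretch of that promoter before the start site is shown because transcripts were counted here in all 6 libraries, although methylation was not measured. It comes from RefSeq (GRCh38.p14, chr10:129466991-129467183, plus strand, ending 58 bases before the start site), with the CpG dinucleotides in capitals.
MGMT: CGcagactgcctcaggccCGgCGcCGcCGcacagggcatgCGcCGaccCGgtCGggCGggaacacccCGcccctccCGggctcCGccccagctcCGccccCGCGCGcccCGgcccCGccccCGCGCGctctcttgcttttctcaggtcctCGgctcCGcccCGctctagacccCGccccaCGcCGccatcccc
These 193 bases hold 28 CpG. Over the full 250 bases before the start site MGMT had 36, more than 95.1% of the 35116 RefSeq promoters of that length, whose median was 11.

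MPG, the glycosylase that excises alkylated purines, had 28.6, 26.5 and 32.2 CPM in the controls and 33.6, 30.4 and 28.5 CPM in the knockdown libraries. The highest control library exceeded knockdown replicates 2 and 3, and the log2 fold change was 0.09 with a 95% interval from -0.13 to 0.31 (edgeR, adjusted p = 0.691). Its value was 0.02 without knockdown replicate 1 and 0.17 without control replicate 3. The end of MPG overlaps NPRL3 on the other strand by 1580 bases, and NPRL3, which restrains mTORC1, had a log2 fold change of 0.06 (edgeR, adjusted p = 0.809).

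APEX1, the endonuclease that acts after the glycosylase, was the most abundant, with 155, 145 and 162 CPM in the controls and 169.7, 167 and 161 CPM in the knockdown libraries. Control replicate 3 lay just above knockdown replicate 3. Its log2 fold change of 0.11 had the smallest SE of the 10, 0.0764, and the 95% interval ran from -0.05 to 0.27 (edgeR, adjusted p = 0.441). Leaving out 1 library gave values from 0.06 to 0.15.

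The promoter of APEX1 is shown because the gene stood highest, also per length, and because its window held the most E-boxes, the letters CACGTG that transcription factors such as USF1 recognise. That window also overlaps an annotated untranslated region of OSGEP, a gene on the minus strand. Printed is the longest part of the window outside all annotated untranslated regions. The stretch lies 36 or more bases before the start site (RefSeq, GRCh38.p14, chr14:20455106-20455190, plus strand), with the E-boxes in capitals.
APEX1: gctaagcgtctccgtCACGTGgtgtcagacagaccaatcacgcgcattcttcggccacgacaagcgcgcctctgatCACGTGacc
These 85 bases hold 2 E-boxes, and the full 250 bases held 3. Windows of 250 bases were found for 8 of the 10 genes, not for POLB and ASCC3, and 3 of those 8 (APEX1, MPG and LIG3) held CACGTG, which reads the same on both strands and occurred in 6.34% of all promoters. The amino acid response element TGATGNAA, the element through which ATF4 acts in amino acid shortage, was searched on both strands and found in 0 of the 8 and in 3.14% of all promoters. The GC box GGGCGG, also searched on both strands, was found in 7 of the 8 and in 42.6% of all promoters. These gene counts take ASCC1, which had 3 windows, once, while the percentages count every promoter. A match of letters is a description and not a measured binding site.

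POLB, the gap-filling polymerase, had 43.4, 38.2 and 39.7 CPM in the controls and 41.7, 37.1 and 38.9 CPM in the knockdown libraries. In both groups replicate 1 was the highest and replicate 2 the lowest library. The log2 fold change was -0.04 with a 95% interval from -0.24 to 0.15 (edgeR, adjusted p = 0.834), and it was 0.01 without control replicate 1.

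XRCC1, the scaffold of single-strand break repair, varied least among the controls, at 34.0, 35.1 and 36.2 CPM, and had 38.7, 37.4 and 34.7 CPM in the knockdown libraries. Knockdown replicate 3 fell inside the control range. The log2 fold change was 0.07 with a 95% interval from -0.12 to 0.27 (edgeR, adjusted p = 0.707). Of the pair of genes whose spans overlap that of XRCC1, L34079.2 had 0 counts and PINLYP at most 12 counts in a library.

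LIG3, the ligase that XRCC1 stabilises, had 55.6, 44.3 and 51.6 CPM in the controls and 59.0, 46.2 and 49.5 CPM in the knockdown libraries. Replicate 1 was again the highest and replicate 2 the lowest in both groups. The spread within a group, 5.69 and 6.63 CPM (SD, n = 3 each), exceeded the difference between the means of 50.5 and 51.5 CPM. The log2 fold change of 0.03 (edgeR, adjusted p = 0.902) turned to -0.08 without knockdown replicate 1 and to -0.06 without control replicate 2.

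**Figure D3:**
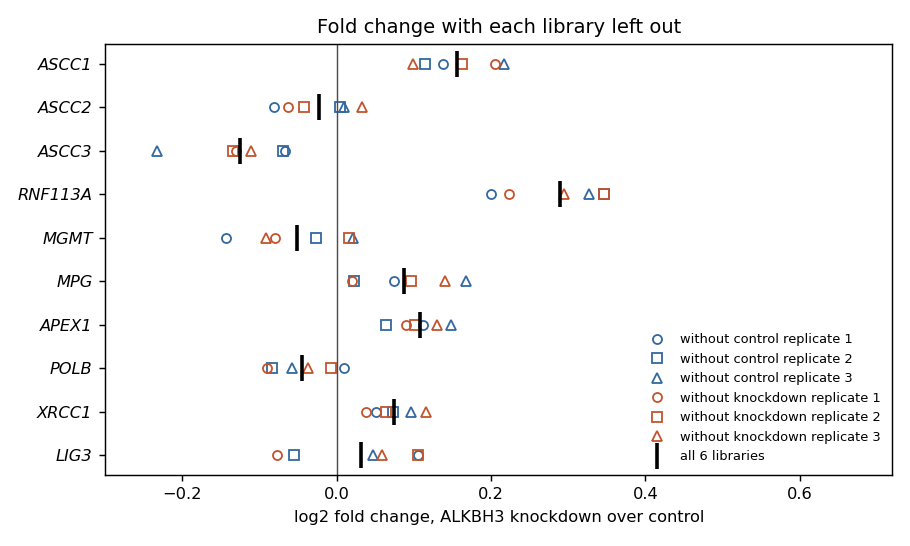
Log2 fold change of each gene with all 6 libraries (bars) and with each library left out in turn (open symbols). The signs of ASCC2, MGMT, POLB and LIG3 change with the library left out, and RNF113A ranges from 0.20 to 0.35.

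Levels can be compared between genes only per length, here as CPM per kilobase of the exons of protein-coding transcripts in GENCODE release 29. On that scale APEX1 stood apart at 103 ± 5.94 CPM per kilobase in the controls (SD, n = 3). POLB, MPG and ASCC2 followed at 24.3 ± 1.61, 22.2 ± 2.22 and 20.4 ± 1.46, with neighbours in this order overlapping across the control libraries. RNF113A at 12.7 ± 1.44 and XRCC1 at 12.5 ± 0.392 CPM per kilobase could not be ordered either. ASCC3, LIG3, ASCC1 and MGMT formed the lowest group, from 7.18 ± 0.964 down to 5.46 ± 0.660 CPM per kilobase, each overlapping its neighbour.

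The order depends in part on the exons counted. With all annotated exons as the length, POLB moved from rank 2 to rank 6, MPG to 2, RNF113A to 3 and XRCC1 to 5, while APEX1 stayed at 1, ASCC2 at 4, and ASCC3, LIG3, ASCC1 and MGMT at 7 to 10. In the knockdown libraries neighbours exchanged places in 2 pairs, MPG with POLB and ASCC1 with LIG3.

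Within the ASCC complex, ASCC2 had a higher level than ASCC1 and ASCC3 on the CPM per kilobase scale. The ratio of ASCC3 to ASCC2 was 0.354 ± 0.0653 in the controls and 0.329 ± 0.0186 in the knockdown, and that of ASCC1 to ASCC2 was 0.273 ± 0.0222 and 0.311 ± 0.0465 (SD, n = 3 each). Single libraries gave ASCC3 to ASCC2 ratios of 0.414, 0.365 and 0.285 in the controls and of 0.313, 0.324 and 0.349 in the knockdown. Both ratios overlapped between the groups. Divided by the length of all annotated exons instead, the control ratios were 0.645 ± 0.119 for ASCC3 to ASCC2 and 0.308 ± 0.0250 for ASCC1 to ASCC2, so the size of the first depends on which exons are counted. In base excision repair the ratio of APEX1 to POLB was 4.24 ± 0.293 in the controls and 4.72 ± 0.254 in the knockdown. That of XRCC1 to LIG3 was 2.15 ± 0.275 and 2.21 ± 0.241. Both again overlapped, APEX1 to POLB only through control replicate 3 at 4.551 and knockdown replicate 1 at 4.541. With all annotated exons the APEX1 to POLB ratio became 8.29 ± 0.571 and 9.22 ± 0.497. The XRCC1 to LIG3 ratio was then 2.62 ± 0.336 in the controls.

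Around the 10 genes, 10 lists of the pathway held 81 further genes besides ALKBH3, all of them tested. Of the 81, 2 were called higher and 3 lower, 6.17% against the 8.08% of all tested genes, and their median log2 fold change was -0.02 beside 0.01. At an unadjusted p under 0.05 there were 21 of the 81, where 22.2% of all tested genes had one (edgeR). The 5 called genes belong to different steps.

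Among the genes of spliceosome assembly around RNF113A, BUD31, a core spliceosome factor, rose from 94.9 ± 11.5 to 135 ± 4.90 CPM (SD, n = 3 each). Its log2 fold change was 0.51 with an SE of 0.0851 (edgeR, adjusted p = 2.47e-04), and it was called in all 15 alternatives. It was the 1 call among 12 tested members, with a median log2 fold change of 0.04. The large partners SNRNP200, the helicase paralogous to ASCC3, and PRPF8 had log2 fold changes of -0.02 and -0.10 and did not pass (edgeR, adjusted p = 0.904 and 0.516).

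ASCC2 and ASCC3 also act, with TRIP4, in splitting collided ribosomes, and of 12 tested genes of ribosome rescue 1 was called. NEMF, which marks stalled nascent chains for the ligase LTN1, rose from 46.4 ± 6.77 to 58.6 ± 1.48 CPM, or by 0.33 on the log2 scale (edgeR, adjusted p = 0.0317). The call was lost without any 1 library other than control replicate 2, with an adjusted p of up to 0.151. TRIP4 had 27.2, 28.6 and 26.6 CPM in the controls and 27.1, 22.0 and 25.9 CPM in the knockdown libraries, and ZNF598, the ligase that marks collided ribosomes, had a log2 fold change of 0.10 (edgeR, adjusted p = 0.502 and 0.596). The list's median was -0.03.

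In the list of ASCC recruitment, which includes the 4 genes described first, 1 of 10 tested genes was called. UBE2V2, a partner of the ubiquitin-conjugating enzyme UBE2N, fell from 164 ± 5.54 to 137 ± 9.16 CPM, a log2 difference of -0.26 (edgeR, adjusted p = 0.0392). The call was lost without control replicate 1 or 2, without knockdown replicate 1 or 2, and when scaled by library totals alone, with an adjusted p of up to 0.169. UBE2N and the deubiquitinases OTUD4, USP7 and USP9X, through which ALKBH3 is kept stable, had log2 fold changes of -0.14, 0.15, -0.02 and 0.00 and did not pass.

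Of 11 tested DNA glycosylases, MPG included, 1 was called. NEIL3, which acts on oxidised bases and is made in dividing cells, had 73.3, 68.3 and 61.5 CPM in the controls and 53.2, 51.3 and 55.2 CPM in the knockdown libraries. It fell by 0.35 on the log2 scale (edgeR, adjusted p = 0.0128), and the call was lost without control replicate 1 or knockdown replicate 2, with an adjusted p of up to 0.0822. The list's median was -0.01.

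Of the 11 tested genes of short-patch repair, among them APEX1, POLB, XRCC1 and LIG3, 0 were called (edgeR), with 2 at an unadjusted p under 0.05 and a median log2 fold change of 0.04. DESeq2 and limma-voom also called 0, while 1 was called without control replicate 2, without knockdown replicate 3 or with the replicate block, and 2 with no filter on low counts. The 2 were named after their values were seen: TDP1, which frees DNA ends from trapped topoisomerase, had a log2 fold change of -0.38 and the end-joining factor APLF one of 0.47 (edgeR, adjusted p = 0.0539 and 0.0702). In the long-patch branch, which shares its enzymes with DNA replication, 1 of 13 was called (7.69%), beside 8.08% of all tested genes. Without control replicate 2 there were 3 calls. RFC3, a subunit of the clamp loader, fell from 46.0 ± 6.93 to 35.2 ± 1.96 CPM, or by 0.38 on the log2 scale (edgeR, adjusted p = 0.0220). It did not pass without control replicate 1, nor without replicate 2 or 3 of the knockdown, with an adjusted p of up to 0.137. With RFC3, 5 genes of this list had an unadjusted p under 0.05, a number that was 2 without control replicate 1 or without control replicate 3, and its median log2 fold change was -0.10.

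The lists of PARP signalling (8 tested genes), of mismatch sensing of methylated guanine (5) and of repair protein stability (9) gave 0 calls (edgeR), with 1, 1 and 2 genes at an unadjusted p under 0.05 and median log2 fold changes of -0.01, -0.03 and 0.04. DESeq2 called 1 gene of the last list and limma-voom 0 in all 3, and 1 mismatch gene was called without knockdown replicate 1, with no filter on low counts or with the replicate block. Among the enzymes of direct reversal, ALKBH3 was the 1 call of 5. Its relatives ALKBH2, ALKBH1 and FTO had log2 fold changes of 0.28, -0.29 and -0.23, each with an unadjusted p under 0.05 and none past the adjusted threshold (edgeR, adjusted p = 0.220, 0.201 and 0.212). None of the 3 had an unadjusted p under 0.05 with DESeq2, without control replicate 1 or without knockdown replicate 3. Of all tested genes, 22.2% had an unadjusted p under 0.05 and 8.08% were called (edgeR).

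**Figure D4:**
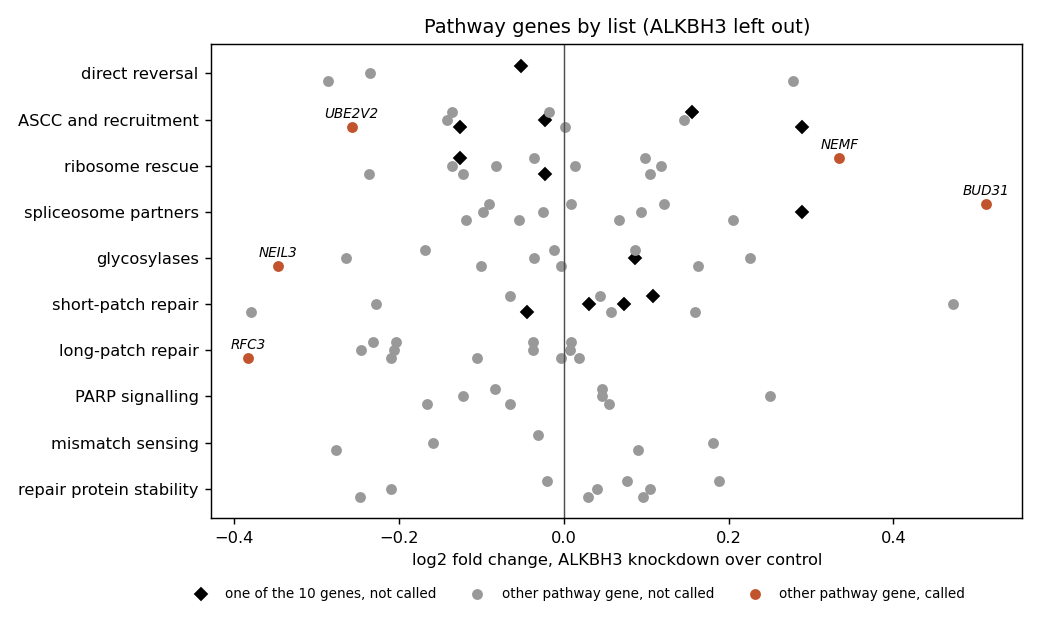
Log2 fold change, knockdown over control, of the tested genes of each pathway list (rows), with the 10 genes as diamonds and called genes in red and named. ALKBH3, at -2.11, is left out; a gene in more than 1 list appears in each.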

How the data were processed

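The values used are raw counts of reads, deposited by the authors as 1 column for each library, per the file headers. Reads were trimmed, aligned and counted with tools that the submitters' processing notes give only by name (fastp 0.20.0, STAR 2.7.9a and featureCounts 2.0, beside DESeq2 and the build hg19); for their settings, annotation and use of strand, nothing is given in the sources used here. A further 6 columns of normalised counts and 2 lines without values were not used. The authors' counts were filtered with filterByExpr (12305 genes left, 0.0556% of counts removed), scaled by TMM and compared with edgeR 4.0.16 in R 4.3.3 (glmQLFit with robust dispersion, glmQLFTest, group alone). Adjusted p-values are Benjamini-Hochberg values over all 12305. The SE was taken as the size of the log2 fold change divided by the root of F. The code was tested on simulated data. Members and lists were chosen with earlier results of these data known. Named are the 10 genes, ALKBH3 and up to 4 called genes a list; other genes were named after their values were seen. Exon lengths, from GENCODE 29 on GRCh38, were matched by Ensembl identifier for 10 of 10. Alternatives used DESeq2 1.42.0, limma 3.58.1, other scalings and filters, a replicate block and each library left out; limma-trend used counts over DESeq2 size factors plus 1.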

Additional observations from a re-analysis of the deposited data

How the results depend on the processing

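Under edgeR, DESeq2 and limma, 0 of the 10 genes were called higher or lower in each of the 15 alternatives, and RNF113A kept its positive sign in all of them. Values near 0 changed sign: ASCC2 was 0.0028 when scaled by library totals alone, and leaving out each library gave -0.081 to 0.033 for ASCC2, -0.144 to 0.021 for MGMT, -0.091 to 0.0088 for POLB and -0.078 to 0.105 for LIG3. Over all genes, leaving out 1 library gave 312 to 433 higher and 285 to 423 lower calls, the fewest without knockdown replicate 2 (312 and 288) and, for lower calls, without knockdown replicate 3 (285). Scaled by library totals alone, the 487 higher and 507 lower calls became 610 and 417, a shift that left the median of all genes at 0.03. Of the other 81 pathway genes, those higher numbered 1 to 2 and those lower 0 to 5 when 1 library was left out. The lower ones were 0 without control replicate 1 or knockdown replicate 2, and 5 without control replicate 2, with no filter or with the replicate block; the cause was not tested. These counts and the ranges for the named pathway genes were added after seeing the data. Deviations from the group mean correlated at 0.06, 0.11 and -0.06 over genes for libraries with the same replicate number. For the other pairs the correlations were -0.15 to 0.09. Each mean rests on few libraries, so these values cannot decide whether the numbers pair the libraries. With the replicate block 587 genes were higher and 647 lower. With 118 to 173 counts per library, MGMT had the fewest counts and the widest SE of the 10 genes, and the cause of that SE was not tested.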
